A study of Mus musculus with 8 samples.

Results

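The transcript of the transcription factor NRF2 (gene Nfe2l2), that of its inhibitor Keap1 and those of 8 antioxidant target genes were examined in 8 intestine libraries, each from 1 C57BL/6 mouse. The 10 genes were listed by name and taken from a table of 49585 gene identifiers. All 10 were among the 16865 genes with a mean of at least 0.5 FPKM (reads scaled to the length of the gene and to the reads of the library), so a filter on low values removed none of them. There were 4 recipients of Klebsiella and 4 recipients of Lactobacillus, both genera of gut bacteria, and no library of mice that received neither was analysed here. The sources used here do not say what else the mice received, for how long, how old they were or which part of the intestine was frozen.

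In animal cells NRF2 is made continuously and, as long as the redox sensor KEAP1 holds it, is marked for destruction by the CUL3 ubiquitin ligase. Electrophiles and oxidants modify KEAP1, so that NRF2 protein escapes, enters the nucleus, pairs with a small MAF protein and binds antioxidant response elements beside genes for glutathione synthesis, thioredoxin recycling and quinone or haem detoxification. The control is therefore exerted largely on the protein, which was not measured here. In the gut epithelium the pathway is known for its response to dietary electrophiles and to products of resident bacteria. The question was whether Nfe2l2 RNA and the RNA of its targets moved together.

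Nfe2l2 was listed because its values had already been seen to differ between the recipients, and the other 9 genes were listed beside it with those results known. The difference between recipients in the 10 genes is therefore given as a description and without a test. Variation among libraries of the same group is not part of that contrast, and was tested.

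Nfe2l2 RNA was higher in Klebsiella recipients in the sense that all 4 libraries lay above all 4 Lactobacillus libraries, with a mean 1.32 times as high, whereas the 8 targets overlapped between the groups and were divided into 4 with a higher and 4 with a lower mean on the log2 scale. Within groups, the RNA of Srxn1, Nqo1 and Gclc rose with that of Nfe2l2 past an unadjusted threshold. That of Gclm, Txnrd1, Hmox1, Slc7a11 and Gsr showed no such relation past it. None of these relations passed after adjustment over all genes. Under 18 alternative settings, some with fewer libraries, the relation fell short of the unadjusted threshold in 13 for Gclc, 8 for Nqo1 and 3 for Srxn1.

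The start regions of the genes are shown first, because NRF2 binds antioxidant response elements beside its targets. RefSeq windows on build GRCm38.p6, from 250 bases before to 50 bases after an annotated start, were at hand for 7 of the 10 genes, with 3 windows for Txnrd1 and 1 for each of the others. Hmox1, Gclc and Gsr had no entry. Each window was searched on both strands for TGACNNNGC, the core of the antioxidant response element, for TGANTCA, the AP-1 core, and for TGATGNAAN, the C/EBP-ATF element. The first can overlap the second in a longer element, and the second reads the same on both strands and was counted once. The sequences below are 5′ to 3′ on the strand of the gene, and capitals mark a match. The Nfe2l2 window lies at chr2:75704614-75704913 on the minus strand, that of Srxn1 at chr2:152105274-152105573 on the plus strand and that of Nqo1 at chr8:107403156-107403455 on the minus strand. The Gclm window lies at chr3:122245307-122245606 on the plus strand and that of Slc7a11 at chr3:50443564-50443863 on the minus strand. Nfe2l2, Srxn1 and Nqo1 are printed because Srxn1 and Nqo1 gave the highest r with Nfe2l2 among the targets, and Gclm and Slc7a11 because theirs were 0.14 and -0.24.
Nfe2l2: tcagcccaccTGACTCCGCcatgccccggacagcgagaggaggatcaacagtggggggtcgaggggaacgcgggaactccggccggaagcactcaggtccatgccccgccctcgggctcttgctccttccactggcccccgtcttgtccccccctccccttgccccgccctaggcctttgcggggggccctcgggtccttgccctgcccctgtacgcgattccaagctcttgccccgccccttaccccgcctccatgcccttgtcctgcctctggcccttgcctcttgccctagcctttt
Srxn1: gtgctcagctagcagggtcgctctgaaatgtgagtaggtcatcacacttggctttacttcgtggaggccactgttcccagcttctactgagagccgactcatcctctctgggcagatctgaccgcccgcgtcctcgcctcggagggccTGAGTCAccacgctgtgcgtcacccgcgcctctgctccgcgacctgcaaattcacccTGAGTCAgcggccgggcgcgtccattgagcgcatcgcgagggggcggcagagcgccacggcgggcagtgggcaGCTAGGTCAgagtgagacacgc
Nqo1: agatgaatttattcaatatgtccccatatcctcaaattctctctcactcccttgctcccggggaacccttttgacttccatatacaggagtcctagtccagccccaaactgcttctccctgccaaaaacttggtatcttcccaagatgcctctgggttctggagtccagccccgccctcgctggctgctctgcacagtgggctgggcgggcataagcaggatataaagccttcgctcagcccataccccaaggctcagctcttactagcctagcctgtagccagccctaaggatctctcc
Gclm: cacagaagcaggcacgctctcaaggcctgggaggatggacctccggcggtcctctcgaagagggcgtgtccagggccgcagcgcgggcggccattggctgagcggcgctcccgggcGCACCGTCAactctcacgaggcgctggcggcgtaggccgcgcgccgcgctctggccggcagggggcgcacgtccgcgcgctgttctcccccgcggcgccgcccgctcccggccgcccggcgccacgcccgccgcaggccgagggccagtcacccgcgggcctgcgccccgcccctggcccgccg
Slc7a11: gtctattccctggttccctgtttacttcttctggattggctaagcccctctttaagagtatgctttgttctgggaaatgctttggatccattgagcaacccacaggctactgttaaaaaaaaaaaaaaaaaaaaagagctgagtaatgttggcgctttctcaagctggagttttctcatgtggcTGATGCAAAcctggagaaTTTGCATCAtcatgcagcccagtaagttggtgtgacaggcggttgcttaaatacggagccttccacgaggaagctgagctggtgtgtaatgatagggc

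The Nfe2l2 window held 1 antioxidant response element core, TGACTCCGC, starting 240 bases before the annotated start. Srxn1 held the core on the minus strand, printed as GCTAGGTCA, 29 bases after the start, and TGAGTCA at 102 and 45 bases before it. Gclm held the core on the minus strand, GCACCGTCA, 134 bases before the start. The second Txnrd1 window held it as GCTTTGTCA, 92 bases before its start. No TGACNNNGC was found in the windows of Keap1, Nqo1 and Slc7a11. Slc7a11 held the C/EBP-ATF element on each strand, as TGATGCAAA at 66 and TTTGCATCA at 48 bases before the start. Over all 32851 RefSeq windows of this length, 12.4% held TGACNNNGC, 7.81% held TGANTCA and 3.95% held TGATGNAAN. These are matches of letters in short windows, and elements farther from a start were not searched.

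Sequencing gave 40455910 to 55447220 filtered reads a library, of which 15375480 to 20953595 could be recovered as whole reads in genes. The tissue label is intestine. Markers of epithelium were present, with Epcam between 611 and 689 FPKM. Among markers of small-intestinal absorption, Fabp1 did not exceed 0.444 FPKM. The summed FPKM of 6 such markers was 12.7 in Klebsiella replicate 3 and 9.80 in Lactobacillus replicate 2, against 0.585 to 1.98 in the others. Position along the gut differed among libraries of the same group: Klebsiella replicate 3 and Lactobacillus replicate 2 had 40.2 and 45.2 FPKM of Hoxb6, where the other 6 libraries had 1.16 to 3.87. Hoxd13, expressed toward the end of the gut, ranged from 2.20 to 46.3 FPKM over Klebsiella and from 19.1 to 43.9 over Lactobacillus libraries. Klebsiella replicate 2 and Lactobacillus replicate 3 carried pancreatic RNA, with 418 and 112 FPKM of Ctrb1, which did not exceed 2.99 in the others. The summed FPKM of 5 fat markers was 1.83 to 19.15 in Klebsiella and 24.4 to 233 in Lactobacillus recipients, so these sums did not overlap. The difference of Nfe2l2 and the relations of Keap1 and the targets to it are given with and without the libraries with high Hoxb6 or Ctrb1. Relations of other genes to Nfe2l2 are given over all libraries only, and their dependence on these libraries was not tested. In such bulk tissue fewer cells of a type and less RNA per cell cannot be told apart.

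Nfe2l2 (chromosome 2, 75675513 to 75704641, minus strand, GENCODE M21 on GRCm38) had 91.5, 103, 103 and 98.7 FPKM in Klebsiella recipients 1 to 4, against 78.7, 85.4, 65.9 and 70.3 FPKM in Lactobacillus recipients 1 to 4. The lowest Klebsiella library was above the highest Lactobacillus library. The means were 99.1 ± 5.49 and 75.1 ± 8.71 FPKM (SD, n = 4 each), from 2831 to 3869 reads and from 2418 to 3315 reads. The difference was 0.40 on the log2(FPKM + 0.5) scale (SE 0.097, limma). Of all genes tested, 1.19% had non-overlapping groups with the Klebsiella recipients higher, and nothing is read from this share for Nfe2l2, which was chosen by this contrast. The difference was 0.31 with log2 Hoxd13 as a covariate, 0.45 without the libraries high in Hoxb6 and 0.32 without those high in Ctrb1.

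Keap1 (chromosome 9, 21229730 to 21239361), whose product retains NRF2 in the cytoplasm, had 20.1, 21.1, 24.6 and 24.8 FPKM in Klebsiella recipients, against 23.2, 23.1, 22.8 and 18.2 FPKM in Lactobacillus recipients. The groups overlapped, and the means were 22.6 ± 2.38 and 21.8 ± 2.41 FPKM (SD, n = 4 each). The log2 difference was 0.05 (SE 0.11). With Keap1 nearly level, FPKM of Nfe2l2 over FPKM of Keap1 was 4.55, 4.87, 4.21 and 3.98 in Klebsiella recipients, against 3.40, 3.70, 2.89 and 3.87 in Lactobacillus recipients. That ratio did not overlap between the groups either, since it has Nfe2l2 in it, but the gap was narrow, at 3.98 against 3.87.

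**Figure D1:**
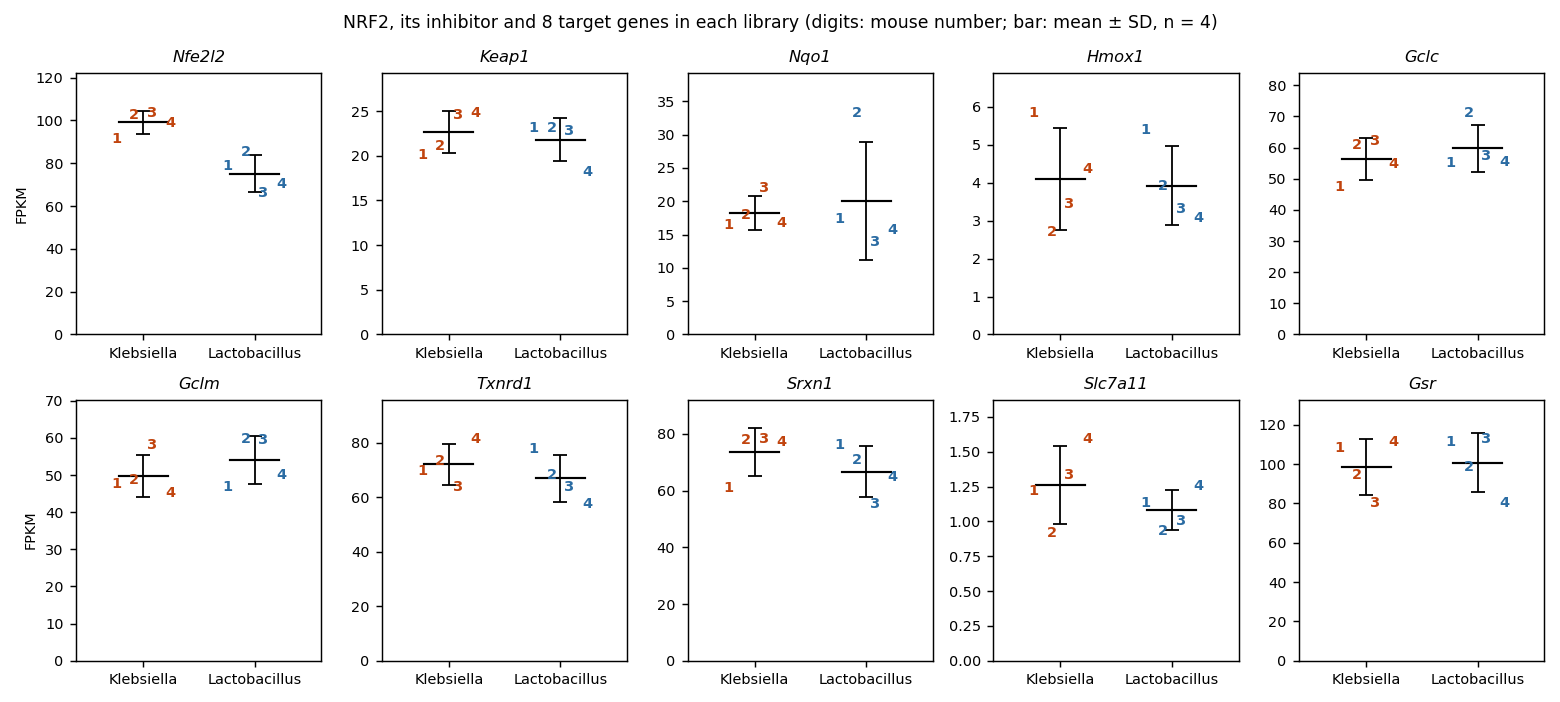
FPKM (vertical axis, from 0) of each of the 10 genes in every library, Klebsiella recipients left and Lactobacillus recipients right in each panel; digits are mouse numbers and the bars show the mean ± SD of 4 libraries. Nfe2l2 is the panel in which the groups stand apart, at 91.5 to 103 against 65.9 to 85.4 FPKM, while the other 9 overlap.

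Gclc and Gclm encode the catalytic and the modifier subunit of glutamate-cysteine ligase, the enzyme of the first and rate-limiting step of glutathione synthesis. Gclc (chromosome 9, 77754535 to 77794485) had 47.4, 60.9, 62.0 and 54.7 FPKM in Klebsiella recipients, against 54.9, 71.1, 57.4 and 55.5 FPKM in Lactobacillus recipients. Gclm (chromosome 3, 122245557 to 122270732) had 47.5, 48.7, 58.0 and 45.2 FPKM in Klebsiella recipients, against 46.9, 59.6, 59.3 and 49.95 FPKM in Lactobacillus recipients. Both overlapped between the groups, and both had a slightly lower mean in Klebsiella recipients. The log2 differences were -0.09 (SE 0.12) for Gclc and -0.11 (SE 0.11) for Gclm. FPKM of Gclc over FPKM of Gclm ran from 0.968 to 1.2504 over the libraries and averaged 1.13 ± 0.118 (SD, n = 4) in Klebsiella recipients and 1.11 ± 0.101 (SD, n = 4) in Lactobacillus recipients.

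Slc7a11 (chromosome 3, 49892526 to 50443614), the cystine carrier of system xc- that supplies cysteine for glutathione, was the least abundant of the 10. It had 1.22, 0.913, 1.33 and 1.59 FPKM in Klebsiella recipients, against 1.13, 0.929, 1.01 and 1.254 FPKM in Lactobacillus recipients, from 63 to 99 reads. The log2 difference was 0.15 (SE 0.18), and both groups had libraries above and below 1.2 FPKM. Gsr (chromosome 8, 33652523 to 33698163), glutathione reductase, which returns oxidised glutathione to its reduced form, had the highest median of the 10. Its values were 108.0, 94.4, 80.2 and 111 FPKM in Klebsiella recipients, against 111, 98.5, 113 and 80.2 FPKM in Lactobacillus recipients. Each group thus held 1 library near 80 FPKM, and the log2 difference was -0.03 (SE 0.14).

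The thioredoxin genes among the targets, Txnrd1 and Srxn1, gave small positive log2 differences. Those of the other listed thioredoxin genes were -0.026 for Txn1, -0.059 for Txn2, -0.099 for Txnrd2 and 0.020 for Txnrd3. The peroxiredoxins Prdx1 to Prdx6 ran from -0.74 to -0.0068. Txnrd1 (chromosome 10, 82833951 to 82897712), cytosolic thioredoxin reductase, had 69.8, 73.4, 63.7 and 81.3 FPKM in Klebsiella recipients, against 77.8, 68.3, 63.9 and 57.6 FPKM in Lactobacillus recipients. Srxn1 (chromosome 2, 152105516 to 152111376), sulfiredoxin, which repairs over-oxidised peroxiredoxins, had 61.1, 77.9, 78.1 and 77.3 FPKM in Klebsiella recipients, against 76.1, 70.9, 55.2 and 64.8 FPKM in Lactobacillus recipients. In Srxn1, 3 of 4 Klebsiella libraries were above every Lactobacillus library, and replicate 1 was below 3 of the 4. The log2 differences were 0.11 (SE 0.11) for Txnrd1 and 0.14 (SE 0.12) for Srxn1. With log2 Hoxd13 as a covariate that of Srxn1 was -0.0064.

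Nqo1 and Hmox1 are the detoxification genes of the list. Nqo1 (chromosome 8, 107388225 to 107403206), the quinone reductase often used as a readout of NRF2, had 16.4, 17.9, 22.03 and 16.7 FPKM in Klebsiella recipients, against 17.3, 33.2, 13.8 and 15.8 FPKM in Lactobacillus recipients. Its highest value in each group came from the library with high Hoxb6. The log2 difference was -0.05 (SE 0.25), and 0.21 without Lactobacillus replicate 2. Hmox1 (chromosome 8, 75093621 to 75100589), haem oxygenase 1, which degrades haem and is also high in macrophages, had 5.84, 2.71, 3.45 and 4.38 FPKM in Klebsiella recipients, against 5.38, 3.92, 3.32 and 3.07 FPKM in Lactobacillus recipients. Replicate 1 was the highest library of both groups, and the log2 difference was 0.04 (SE 0.24). Hmox1 rested on 61 to 108 reads. The summed FPKM of 7 macrophage markers was 124 to 155 in Klebsiella and 127 to 207 in Lactobacillus recipients, and its part in the Hmox1 values was not tested.

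By median over the 8 libraries the order of FPKM levels, which are per length of gene, was Gsr at 103, Nfe2l2 at 88.5, Srxn1 at 73.5, Txnrd1 at 69.0, Gclc at 56.5, Gclm at 49.3, Keap1 at 22.9, Nqo1 at 16.97, Hmox1 at 3.69 and Slc7a11 at 1.17. Between neighbours in this order, the ranges over libraries were separate for Gclm and Keap1, for Nqo1 and Hmox1 and for Hmox1 and Slc7a11. The other neighbours overlapped, and Srxn1 was above Txnrd1 in 4 of 8 libraries. Nfe2l2 was above Srxn1 in 8 of 8 libraries, although their ranges overlapped.

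**Figure D2:**
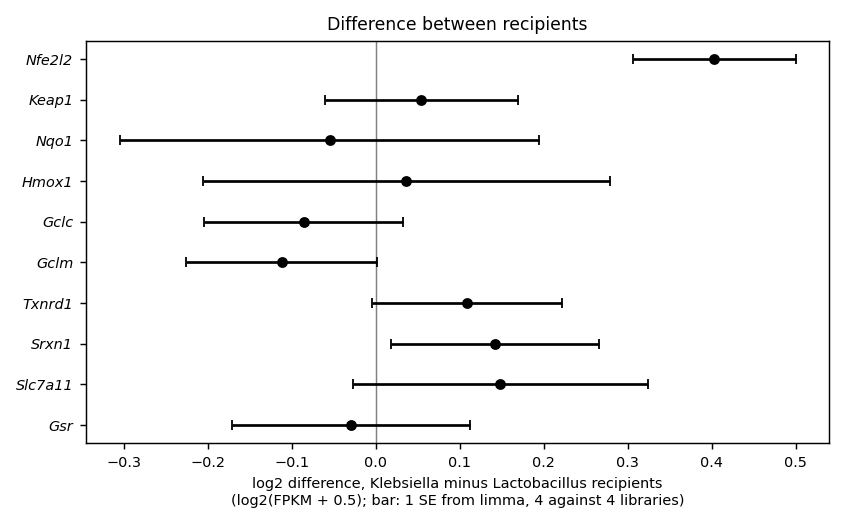
Difference between Klebsiella and Lactobacillus recipients (horizontal axis, log2(FPKM + 0.5), Klebsiella minus Lactobacillus) for each of the 10 genes; points are the fitted differences and bars 1 SE from limma, with 4 against 4 libraries. Nfe2l2 stands at 0.40, and the 8 targets lie between -0.11 and 0.15.

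The targets were set beside the rest of the table. Of the 8 targets, 4 had a positive log2 difference and 4 a negative one, the median being 0.0037; over all 16865 genes 46.4% were positive and the median was -0.017. By limma 0 of all genes (0%) passed an adjusted p of 0.05 in either direction, and 1024 (6.07%) had an unadjusted p under 0.05. The 10 genes are not set against these shares, since the contrast chose Nfe2l2. Voom on the recovered reads also called 0 of 16858 genes, with 465 higher and 571 lower at an unadjusted p under 0.05. Groups that did not overlap were found in 1 of the 10 genes and in 2.99% of all genes, from which nothing is read for the same reason. Leaving out each library in turn kept the difference of Nfe2l2 between 0.34 and 0.47, and moved the median of the targets between -0.088 and 0.094.

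Relations to Nfe2l2 were then measured within groups. Each gene's group mean was removed from log2(FPKM + 0.5), which leaves 8 deviations per gene that hold nothing of the contrast between recipients. Pearson's r and Spearman's rho with Nfe2l2 were tested two-sided by exact permutation over all pairings within groups, for which the smallest p is 0.00174. The same was done for all 16864 other genes tested, over which the p-values were adjusted (Benjamini-Hochberg).

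Within groups, the library richest in Nfe2l2 was Lactobacillus replicate 2, at 0.19 above its group's mean on the log2 scale, and the poorest was Lactobacillus replicate 3, at 0.18 below (a deviation of -0.18). Nqo1 deviated by 0.80 and -0.43 in these libraries. In Klebsiella recipients replicate 3 was the richest in Nfe2l2 and in Nqo1, with deviations of 0.064 and 0.28, and replicate 1 the poorest in both, with -0.11 and -0.14. The r of Nqo1 with Nfe2l2 was 0.86 (exact permutation p = 0.00521, adjusted p = 0.870, 8 libraries), and rho was 0.83 (exact permutation p = 0.0208). Without Lactobacillus replicates 2 and 3, which are farthest from the median of Nfe2l2, r was 0.70 (exact permutation p = 0.146, where the smallest possible is 0.0208): r stayed positive but no longer passed the threshold. Without the libraries high in Hoxb6 it was 0.93 (exact permutation p = 0.0833) and without those high in Ctrb1 0.85 (exact permutation p = 0.111), where the smallest possible p is 0.0278. With group means kept it was 0.35 (exact permutation p = 0.422).

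Srxn1 followed Nfe2l2 in rank more closely than any other target. Srxn1 deviated by -0.26, 0.089, 0.093 and 0.078 in Klebsiella recipients, against -0.11, 0.053, 0.064 and -0.0041 for Nfe2l2 in the same libraries. In Lactobacillus recipients Srxn1 deviated by 0.20, 0.097, -0.26 and -0.032, against 0.075, 0.19, -0.18 and -0.087 for Nfe2l2. The sign was shared in 7 of the 8 libraries, the exception being Klebsiella replicate 4. The r was 0.84 (exact permutation p = 0.0122, adjusted p = 0.909), and rho was 0.98 (exact permutation p = 0.00694); rho was positive at an unadjusted p under 0.05 in 2.64% of all genes. The r was 0.94 without Lactobacillus replicates 2 and 3 (exact permutation p = 0.0208, the smallest possible with 6 libraries) and 0.97 without the libraries high in Hoxb6 (exact permutation p = 0.0278, again the smallest possible). Without those high in Ctrb1 it was 0.70 (exact permutation p = 0.139), and without Klebsiella replicate 1 it was 0.84 (exact permutation p = 0.132). Srxn1 was also the target with the highest r when group means were kept, at 0.73 (exact permutation p = 0.0429), a value that contains the contrast by which Nfe2l2 was chosen.

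Gclc gave an r of 0.74 (exact permutation p = 0.0417, adjusted p = 1.0) and a rho of 0.55 (exact permutation p = 0.208). Its highest library within groups, at a deviation of 0.26, was again Lactobacillus replicate 2, and its lowest, at -0.24, was Klebsiella replicate 1. The r was 0.49 without Lactobacillus replicate 2 (exact permutation p = 0.194) and 0.40 without the libraries high in Hoxb6 (exact permutation p = 0.389). It was 0.86 without those high in Ctrb1 (exact permutation p = 0.111), 0.89 without Lactobacillus replicate 1 and 0.87 without Lactobacillus replicate 3 (exact permutation p = 0.0208 each). With group means kept it was 0.11 (exact permutation p = 0.794). Leaving out the libraries farthest in Nfe2l2 left it at 0.75 (exact permutation p = 0.0625).

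The other targets and Keap1 gave no relation past the unadjusted threshold over the 8 libraries. The r with Nfe2l2 was 0.43 for Keap1 (exact permutation p = 0.339), 0.36 for Txnrd1 (exact permutation p = 0.483) and 0.14 for Gclm (exact permutation p = 0.755). It was 0.0062 for Hmox1 (exact permutation p = 0.986), -0.19 for Gsr (exact permutation p = 0.703) and -0.24 for Slc7a11 (exact permutation p = 0.505). Their rho ran from -0.21 for Gsr to 0.50 for Txnrd1. Some of these r moved widely with the libraries used. That of Gclm was -0.70 without the libraries high in Hoxb6 (exact permutation p = 0.306) and 0.63 without those high in Ctrb1 (exact permutation p = 0.25), so its sign depended on which libraries were kept. That of Keap1 was 0.27 without the libraries high in Hoxb6 (exact permutation p = 0.694) and 0.90 without those high in Ctrb1 (exact permutation p = 0.111). That of Txnrd1 was 0.68 without the libraries high in Hoxb6 (exact permutation p = 0.278) and 0.33 without those high in Ctrb1 (exact permutation p = 0.639). Hmox1, Gsr and Slc7a11 lay between -0.42 and 0.099 without either pair. Over all 18 alternatives Hmox1 ran from -0.22 to 0.41, Gsr from -0.57 to 0.099 and Slc7a11 from -0.46 to 0.91. The 0.91 of Slc7a11 came with the mouse number as a block (exact permutation p = 0.167). Gclc and Gclm had an r of 0.65 with each other.

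**Figure D3:**
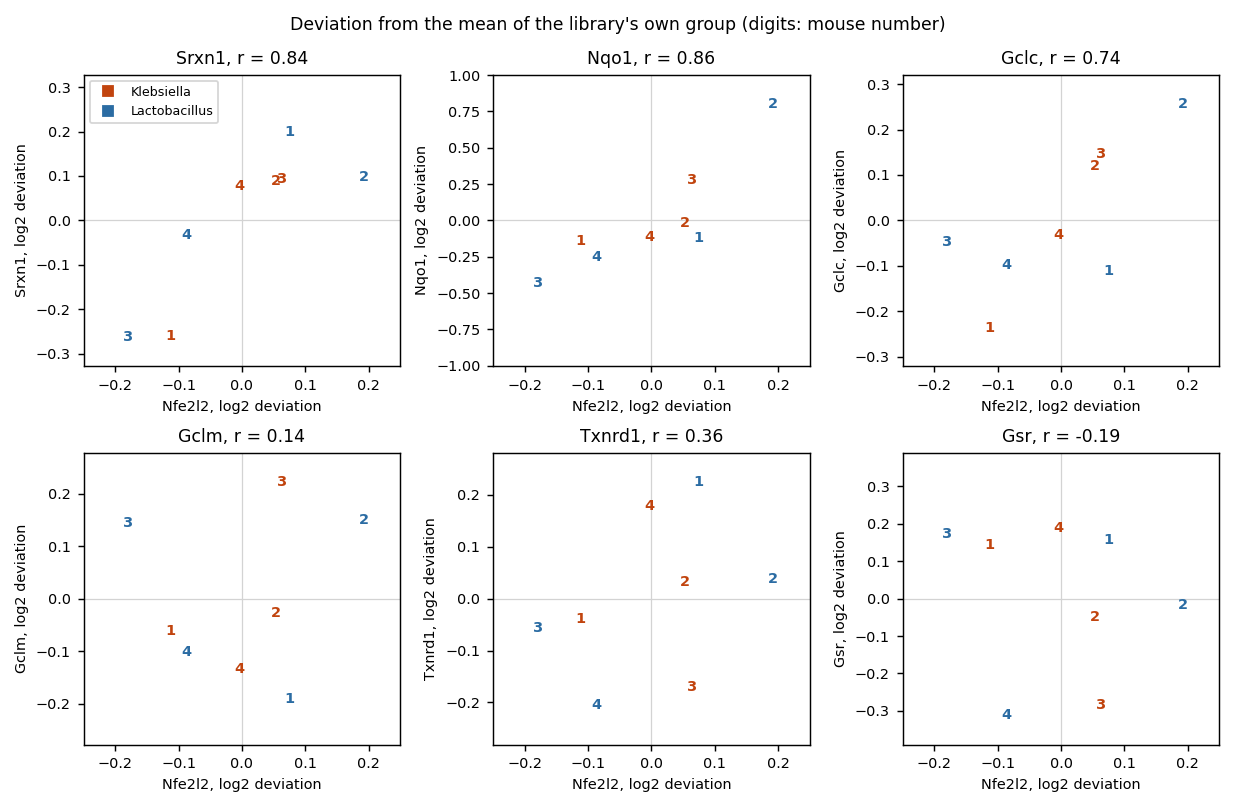
Deviation of each library from its group's mean for Nfe2l2 (horizontal axis, log2) against that of 6 targets (vertical axes, log2), with digits for mouse numbers and colours for Klebsiella and Lactobacillus recipients. Srxn1, Nqo1 and Gclc run from lower left to upper right, with r of 0.84, 0.86 and 0.74, and Nqo1 reaches 0.80 in Lactobacillus replicate 2; Gclm, Txnrd1 and Gsr show no clear slope, with r of 0.14, 0.36 and -0.19.

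The count of targets past the unadjusted threshold was 3 of 8, all positive, where 2.94% of all genes were positive at that p and 4.55% passed in either sign. Over all genes 55.9% had a positive r and the median r was 0.054, with the 5th and 95th percentiles at -0.58 and 0.67. In that distribution Nqo1 was at percentile 99.4, Srxn1 at 99.2 and Gclc at 97.1, while Slc7a11 was at 21.7. No gene of the 16864 passed after adjustment, where the smallest adjusted p was 0.697. The count fell to 1 target with the libraries of high Hoxb6 left out and to 0 with those of high Ctrb1 left out, where 6 libraries remain and p cannot be below 0.0278. Of 25 further NRF2 target genes, described below, 17 had a positive r with Nfe2l2, with a median of 0.11. Among these 25 genes 1, Abcc3, was past the unadjusted threshold.

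The targets also differed in how they varied with each other, given here as r over the same 8 deviations and without a test. Nqo1 and Gclc had an r of 0.79, Txnrd1 and Gsr of 0.75 and Hmox1 and Gsr of 0.60. Hmox1 and Gclc had an r of -0.54 and Gclm and Txnrd1 of -0.53. Nqo1 and Srxn1, each close to Nfe2l2, had an r of 0.49 with one another.

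Among protein genes over all 16864 tested, those closest to Nfe2l2 within groups were Srrm3 with an r of 0.98, Slc35d1 with 0.97, Gzma with 0.96, Cck with 0.95, Mrpl55 with 0.94 and Grip1 with 0.94, each over 8 libraries. Those most opposite were Csad with -0.96, Fbxw11 with -0.96, Gja5 with -0.95 and Rgn with -0.95. Srrm3 and Grip1 were low, with means of 0.583 and 0.742 FPKM, where the filter was at 0.5. Slc35d1, a nucleotide-sugar carrier of the endoplasmic reticulum, had 11.6, 17.1, 24.2 and 16.1 FPKM in Klebsiella recipients, against 14.1, 21.5, 7.05 and 9.24 FPKM in Lactobacillus recipients. Cck, the hormone cholecystokinin, had 3.22, 6.35, 6.96 and 5.47 FPKM in Klebsiella recipients, against 4.13, 4.63, 2.04 and 2.32 FPKM in Lactobacillus recipients. Within each group both ordered the libraries exactly as Nfe2l2 did. Gzma, a protease of cytotoxic lymphocytes, reached 15.1 FPKM in Lactobacillus replicate 2. Markers of other cells and of position moved too: the r with Nfe2l2, given here as a description, was 0.88 for Muc2, the goblet cell mucin, and 0.70 for Hoxb6. It was 0.85 for Alpi and 0.65 for Slc10a2, the 2 tested markers of small-intestinal absorption. Among the colon epithelium markers it ran from -0.93 for Epcam, the epithelial adhesion molecule, to 0.70 for Krt20, a keratin of surface cells, and 7 of 9 were positive, with a median r of 0.12. Of 5 goblet cell markers 2 had a positive r, and of 7 macrophage markers 7 did, with a median r of 0.45. Over all genes 55.9% had a positive r, with a median of 0.054. The summed FPKM of the goblet cell markers was 11609 to 14064 in Klebsiella and 6854 to 12797 in Lactobacillus recipients. The part of these cells and of position in the relations above was not tested.

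The partners and regulators of NRF2 mostly had a higher mean in Klebsiella recipients, with 10 of 11 positive log2 differences and a median of 0.12, against 46.4% positive and a median of -0.017 over all genes. Of the positive differences, those of Gsk3b, Btrc and Dpp3 were 0.0024, 0.011 and 0.022. The count was 8 of 11 with log2 Hoxd13 as a covariate, without Klebsiella replicate 3 or without Lactobacillus replicate 4, and 9 or 10 under the other alternatives. None of the 11 genes passed the adjusted threshold, and 1 was higher at an unadjusted p under 0.05 (limma), as were 2.55% of all genes. That gene was Cul3, the scaffold of the ligase that carries KEAP1 and its cargo, with 62.4, 57.6, 62.2 and 66.2 FPKM in Klebsiella recipients, against 50.1, 57.4, 52.7 and 53.7 FPKM in Lactobacillus recipients. The Cul3 groups did not overlap, as in 1.19% of all genes with the Klebsiella recipients higher, and came closest at 57.6 against 57.4 FPKM. The log2 difference of Cul3 was 0.21 (SE 0.077, limma adjusted p = 0.774). Sqstm1, the p62 adaptor that can pull KEAP1 into autophagy, had a log2 difference of 0.15 (SE 0.078).

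Mafk, a small MAF partner of NRF2, and Bach1, which competes with NRF2 for the same elements, varied widely within both groups. Mafk had 109, 134, 43.9 and 92.3 FPKM in Klebsiella recipients, against 113, 47.7, 37.0 and 36.5 FPKM in Lactobacillus recipients. Bach1 had 66.7, 32.3, 24.1 and 96.3 FPKM in Klebsiella recipients, against 51.4, 27.8, 27.6 and 26.7 FPKM in Lactobacillus recipients. The high libraries were thus Klebsiella replicates 1, 2 and 4 and Lactobacillus replicate 1 for Mafk, and the same with a lesser value in Klebsiella replicate 2 for Bach1. Maff, another small MAF, and Osgin1, an NRF2 target, were named after their values were seen. Maff had 39.4, 34.6, 11.8 and 33.0 FPKM in Klebsiella recipients, against 35.7, 19.4, 12.2 and 14.1 FPKM in Lactobacillus recipients. Osgin1 had 22.8, 23.6, 13.1 and 21.8 FPKM in Klebsiella recipients, against 28.7, 9.83, 11.7 and 11.6 FPKM in Lactobacillus recipients. The same libraries were high. The r of Mafk with Nfe2l2 within groups was 0.22 (exact permutation p = 0.707) and that of Bach1 was -0.14 (exact permutation p = 0.646). Of the 11 partners and regulators 8 had a positive r, with a median of 0.20, against 55.9% positive and a median of 0.054 over all genes. The highest was that of Mafg, another small MAF named after its values were seen, at 0.74 (exact permutation p = 0.0486) with a rho of 0.62. Of the 11, only this 1 was past an unadjusted p of 0.05, where 2.94% of all genes had a positive r. No gene passed after adjustment.

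**Figure D4:**
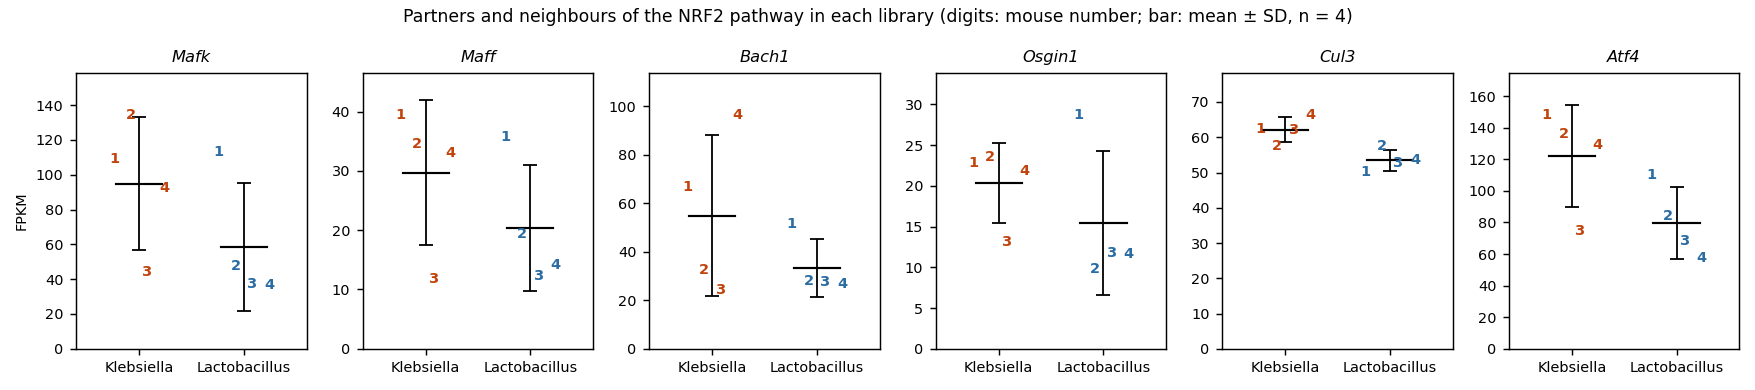
FPKM (vertical axes, from 0) of Mafk, Maff, Bach1, Osgin1, Cul3 and Atf4 in every library, Klebsiella recipients left and Lactobacillus recipients right; digits are mouse numbers and bars the mean ± SD of 4 libraries. In the panels of Mafk, Maff, Osgin1 and Atf4, Lactobacillus replicate 1 lies above the rest of its group and Klebsiella replicate 3 below the rest of its own; Cul3 is the panel without overlap.

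Differences of further NRF2 target genes were mostly negative. Of 26 listed, 25 passed the filter (Gsta2 did not), and among these the sign was positive for 6 and negative for 19, and the median was -0.078. None passed the adjusted threshold, and 0 were higher and 3 lower at an unadjusted p under 0.05 (limma), where 2.55% and 3.52% of all genes were. These were Cbr1, Gsta3 and Mgst1. Cbr1, a carbonyl reductase, had 156, 174, 188 and 151 FPKM in Klebsiella recipients, against 176, 231, 212 and 203 FPKM in Lactobacillus recipients (log2 difference -0.30, SE 0.11). Gsta3, a glutathione transferase, had 22.8, 10.4, 9.80 and 16.4 FPKM in Klebsiella recipients, against 21.6, 24.8, 22.6 and 19.96 FPKM in Lactobacillus recipients (log2 difference -0.64, SE 0.25). Replicate 1 of the Klebsiella recipients lay among the Lactobacillus libraries in Gsta3, and the other 3 lay below all of them. Mgst1, the microsomal glutathione transferase, averaged 152 ± 15.1 FPKM (SD, n = 4) in Klebsiella recipients, against 193 ± 30.7 FPKM (SD, n = 4) in Lactobacillus recipients. Gpx2, the glutathione peroxidase of gut epithelium, ranged from 251 to 566 FPKM in Klebsiella and from 297 to 594 FPKM in Lactobacillus recipients; it was not named by the rule and was added after its values were seen.

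The remaining glutathione, thioredoxin and antioxidant enzymes had 3 positive and 18 negative differences among 21, with a median of -0.094, where 46.4% of all genes were positive. By limma 0 were higher and 3 lower at an unadjusted p under 0.05, where 2.55% and 3.52% of all genes were, and 0 passed after adjustment. Prdx2, a peroxiredoxin that Srxn1 repairs, had 121, 113, 119.5 and 118.5 FPKM in Klebsiella recipients, against 132, 129, 139 and 135 FPKM in Lactobacillus recipients. The Prdx2 groups did not overlap, as in 1.8% of all genes with the Klebsiella recipients lower. Within groups its r with Nfe2l2 was -0.82 (exact permutation p = 0.0226) and rho was -0.74, where 1.61% of all genes had a negative r at an unadjusted p under 0.05. Of the 21 genes 12 had a positive r, where 55.9% of all genes did, and 2 were past an unadjusted p of 0.05, with opposite signs. The other was Prdx5, a peroxiredoxin found in mitochondria and peroxisomes, with an r of 0.81 (exact permutation p = 0.0399) and a rho of 0.86, where 2.94% of all genes had a positive r at that p. Prdx5 averaged 192 ± 13.7 FPKM (SD, n = 4) in Klebsiella recipients, against 229 ± 19.8 FPKM (SD, n = 4) in Lactobacillus recipients, with a log2 difference of -0.25. Prdx6, which acts with glutathione, had 869, 1119, 800.0 and 518 FPKM in Klebsiella recipients, against 1176, 1023, 1298 and 2023 FPKM in Lactobacillus recipients. The highest Prdx6 value came from Lactobacillus replicate 4, the library with the highest sum of fat markers, at 233 FPKM, and the part of fat in it was not tested.

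The NADPH-supplying enzymes had 2 positive and 4 negative differences among 6, with a median of -0.0062, and none was past an unadjusted p of 0.05 (limma); 4 of 6 were positive, with a median of 0.022, when FPKM was scaled to a constant total. G6pdx, the entry enzyme of the pentose phosphate pathway, averaged 38.04 ± 3.11 FPKM (SD, n = 4) in Klebsiella recipients, against 41.8 ± 1.57 FPKM (SD, n = 4) in Lactobacillus recipients. Me1, malic enzyme, averaged 6.99 ± 1.78 FPKM (SD, n = 4) in Klebsiella recipients, against 6.44 ± 1.08 FPKM (SD, n = 4) in Lactobacillus recipients.

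The ATF4 branch of the stress response, which also acts on Slc7a11, had 7 positive and 3 negative differences among 10, with a median of 0.15, where 46.4% of all genes were positive. None passed after adjustment, and 2 were higher at an unadjusted p under 0.05 (limma), as were 2.55% of all genes. Atf4, the transcription factor itself, had 148, 136, 74.9 and 129 FPKM in Klebsiella recipients, against 110.1, 83.9, 68.1 and 57.7 FPKM in Lactobacillus recipients. Asns, asparagine synthetase, a target of ATF4, had 33.2, 25.2, 30.1 and 29.5 FPKM in Klebsiella recipients, against 26.2, 26.9, 18.4 and 14.7 FPKM in Lactobacillus recipients. Both overlapped between the groups, with log2 differences of 0.60 (SE 0.25) for Atf4 and 0.48 (SE 0.19) for Asns. Psat1, of serine synthesis, had a log2 difference of 0.40 (SE 0.24), and Slc7a11 itself was at 0.15.

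**Figure D5:**
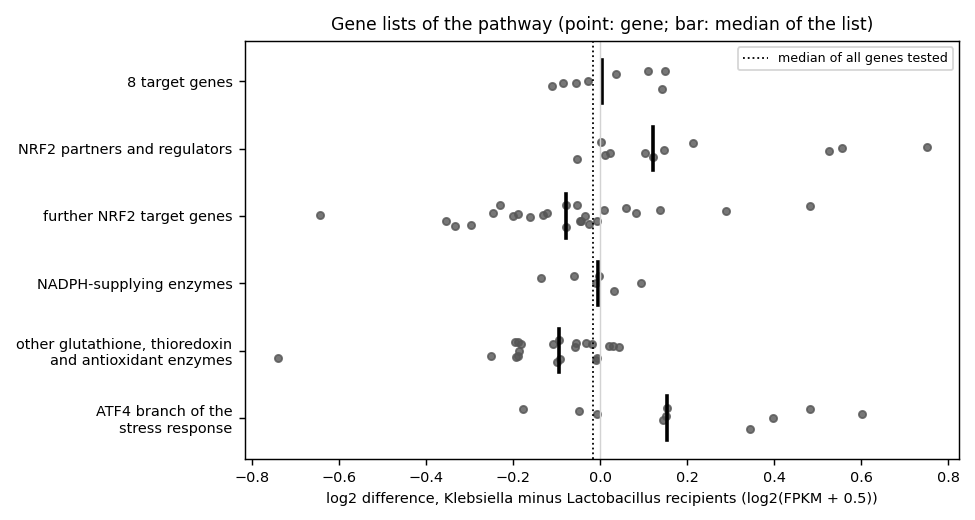
Log2 difference between Klebsiella and Lactobacillus recipients (horizontal axis, log2(FPKM + 0.5)) of every tested gene of 6 lists, with a point per gene, a bar at each list's median and a dotted line at the median of all genes, -0.017. The medians are 0.0037 for the 8 targets, 0.12 for partners and regulators, -0.078 for further targets, -0.0062 for NADPH enzymes, -0.094 for other antioxidant enzymes and 0.15 for the ATF4 branch.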

How the data were processed

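Intestinal RNA of 8 mice was sequenced, with 4 recipients in each group. Per the labels' protocols, RNA was taken with Trizol from frozen tissue and libraries were made with an Illumina TruSeq kit. STAR 2.5.1b, DESeq2 1.10.1, HTSeq 0.6.0 and CASAVA are named in the submitters' processing notes without their roles. The sources used here do not give the genome build or say whether counting used strand. The authors deposited FPKM values per gene and library. The deposited read table gives filtered read counts, with the percent of bases of quality 30 or more (90.65 to 94.57) and of G or C bases (49.37 to 51.20). Identifiers were matched to symbols with GENCODE M21 (49326 of 49585, 259 without a match).

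FPKM values are not counts. In 26962 of the 26963 genes above 0 in 2 libraries or more, the values were whole multiples of the value of 1 read (relative tolerance 1e-09); these reads served as the voom alternative and to give depth, and cover counting error only. The main fit was limma 3.58.1 (R 4.3.3) with a mean-variance trend on log2(FPKM + 0.5) two-sided, for genes averaging 0.5 FPKM or more, with Benjamini-Hochberg adjustment over 16865 genes. A difference on this scale understates that of low genes. Correlations used Python 3.11.15, numpy 2.4.6, pandas 2.3.3 and scipy 1.17.1, and figures matplotlib 3.10.9. The scripts were tested on simulated data. Replicates are separate mice per the labels.

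The 10 genes, the gene lists, the markers and the alternatives were chosen with earlier results of these data known. Of each list, up to 4 genes with the smallest unadjusted limma p were named, and of all protein genes the 6 with the highest and the 4 with the lowest r to Nfe2l2. Lists are described by counts and medians, with no test of a list. Alternatives were other pseudocounts and filters, rescalings, voom, the mouse number as a block, log2 Hoxd13 as a covariate, pairs of libraries left out and each library left out in turn. Nfe2l2 overlaps the small nuclear RNA gene Gm24996, Keap1 the antisense gene Gm16754, Gclm the pseudogene Gm6061 and Txnrd1 the gene Eid3, so reads of these partners cannot be told apart where they overlap.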

Additional observations from a re-analysis of the deposited data

Results flagged for a closer look

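Each group of 4 libraries was searched for a library standing far from the other 3, over 60 such groups of the named genes, of which chance alone gives about 1 in 20; 6 were found. Keap1 was at 18.2 FPKM in Lactobacillus replicate 4, below the 22.8 to 23.2 FPKM of the other 3 Lactobacillus recipients. Gclc was at 71.1 FPKM in Lactobacillus replicate 2, above the others of that group at 54.9 to 57.4 FPKM. Srxn1 was at 61.1 FPKM in Klebsiella replicate 1, below the 77.3 to 78.1 FPKM of the other 3 Klebsiella recipients. Mafk was at 113.0 FPKM and Bach1 at 51.4 FPKM in Lactobacillus replicate 1, with the others of that group at 36.5 to 47.7 FPKM for Mafk and at 26.7 to 27.8 FPKM for Bach1. Cbr3, a carbonyl reductase, was at 34.3 FPKM in Klebsiella replicate 1, with the other 3 at 24.4 to 25.3 FPKM.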

How the results depend on the processing

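No gene passed the adjusted threshold in limma under any of 19 alternatives, or with any library left out (0 to 0). The median difference of the 8 targets, 0.0037, lay between -0.088 and 0.094 over the 19 alternatives, positive in 15 and negative in 4, and each library left out in turn gave the same range. The count of targets past the unadjusted threshold with Nfe2l2 within groups was 3 of 8. It was 1 with group means kept, 1 without the pair of libraries farthest in Nfe2l2, 1 without those of high Hoxb6 and 0 without those of high Ctrb1. When each library was left out in turn, it ran from 1 to 3. Fewer libraries allow fewer pairings, so p has a higher floor, but in these settings the floor was at most 0.0278 and below the threshold. With the mouse number as a replicate block the count was 0, with an r of 0.79 for Nqo1 (exact permutation p = 0.25), 0.89 for Srxn1 and 0.99 for Gclc (exact permutation p = 0.0833 each, smallest possible 0.0417). Same-numbered mice had correlations of deviations of 0.189, -0.100, -0.0591 and -0.159. The labels do not say whether the numbers pair the mice, and such correlations over all genes cannot exclude a weak or partial pairing. With log2 Hoxd13 as a covariate the difference of Hmox1 was 0.44 and that of Gclc -0.30; the cause was not tested. Positive differences among the other antioxidant enzymes were 6 of 21 after either rescaling, against 3 of 21. Hmox1 and Slc7a11 rest on few reads, 61 to 108 and 63 to 99; the SE of the difference was largest for Nqo1, at 0.25.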

Other observations

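Iron storage and haem handling genes of the further target list were not described above. Fth1, the ferritin heavy chain, had 1187, 1122, 1475 and 902 FPKM in Klebsiella recipients, against 1019, 1574, 1129.9 and 1411 FPKM in Lactobacillus recipients. Ftl1, the ferritin light chain, had 104, 118, 114 and 124 FPKM in Klebsiella recipients, against 112, 165, 165 and 100.4 FPKM in Lactobacillus recipients. Both groups overlapped for both genes, and the log2 differences were -0.13 (SE 0.19) and -0.20 (SE 0.17). Blvrb, a biliverdin reductase, which acts after haem oxygenase, averaged 31.4 ± 4.50 FPKM (SD, n = 4) in Klebsiella recipients, against 35.8 ± 5.23 FPKM (SD, n = 4) in Lactobacillus recipients, and its log2 difference was -0.19 (SE 0.14). These genes were added after their values were seen. By limma 0 of them passed the adjusted threshold and 0 an unadjusted p of 0.05.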
